A study of Mus musculus with 17 samples.

Results

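The transcripts described here are those of the mitochondrial chromosome, the small circular DNA (mtDNA) held inside mitochondria. The members are all genes whose GENCODE M21 symbol starts with mt-, which gave 37 of the 54838 genes in the count files: 13 mRNAs, 2 rRNAs and 22 tRNAs. They were measured by bulk RNA sequencing in SLAM-HSCs, haematopoietic stem cells sorted from c-kit enriched bone marrow of C57BL/6 Jrj mice as Lin- Ckit+ Sca1+ CD48- CD150+ cells. The design compared old with young mice, and it compared each age with mice given an agent that acts on mitochondria. The old Mito-Q group (n = 5 libraries) came from mice over 18 months old that had 5 daily intraperitoneal injections of 2 mg/kg Mito-Q (a quinone antioxidant carried into mitochondria by its positive charge). The old control group (n = 3) came from mice of the same age. The young CCCP group (n = 5) came from mice of 8 to 12 weeks that had 1 intraperitoneal injection of 0.3 mg/kg CCCP, a protonophore that uncouples respiration from ATP synthesis. The young control group (n = 4) came from mice of 8 to 12 weeks. The labels give no genetic alteration, do not say whether controls had a vehicle, and do not say whether each library is a separate mouse, so the p-values measure the spread between libraries, which may be technical.

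Mitochondrial DNA is transcribed from both strands as long polycistronic RNAs. The tRNAs lie between most of the other genes and are cut out by mitochondrial RNase P and the RNase Z ELAC2, which also frees the rRNAs and mRNAs. The mRNAs encode core subunits of respiratory complexes I, III and IV and of ATP synthase, whose other subunits are encoded in the nucleus, and the rRNAs build the mitochondrial ribosome. Haematopoietic stem cells are known for their reliance on glycolysis while quiescent.

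A run of mtDNA is also present in the nucleus, and a read that falls inside it can come from either place. On GRCm38, 7 annotated pseudogenes on the minus strand of chromosome 1, at chr1:24611535-24616197, hold sequence of 7 of the mRNAs. The stretches that aligned took in 4133 bases, with 0 substitutions between the pseudogenes and their mtDNA counterparts. The alignment drops ends that differ, such as the first 13 bases of Gm29216, so these are not counted. In mt-Co1 the shared sequence begins at base 1067. In mt-Nd4 it ends 502 bases before the gene's end, where the annotated Gm28439, aligned over all its 876 bases, also ends. Only these 7 pseudogenes were compared, so sequence beyond their annotated ends and other nuclear copies of mtDNA were not examined. The stretches below are transcript sequences from GENCODE M21, shown because they mark where a read can and cannot be told apart from these annotated pseudogenes. Capitals mark bases inside the shared stretch, which takes in the whole of what is shown for mt-Co2 and mt-Co3. They are bases 1054 to 1113 of mt-Co1 (chrM:6381-6440, plus strand) and the first 60 bases of its copy Gm29216 (chr1:24616138-24616197, minus strand), then bases 625 to 681 of mt-Co2 (chrM:7637-7693, plus) and the same bases of Gm28661 (chr1:24614885-24614941, minus), and the first 60 bases of mt-Co3 (chrM:8607-8666, plus) and of Gm28437 (chr1:24613912-24613971, minus).
mt-Co1: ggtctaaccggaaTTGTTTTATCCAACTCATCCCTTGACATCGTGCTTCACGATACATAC
Gm29216: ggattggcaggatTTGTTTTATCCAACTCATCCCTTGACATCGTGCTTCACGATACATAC
mt-Co2: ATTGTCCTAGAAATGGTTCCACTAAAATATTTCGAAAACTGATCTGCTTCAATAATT
Gm28661: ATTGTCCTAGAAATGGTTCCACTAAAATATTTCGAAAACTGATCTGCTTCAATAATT
mt-Co3: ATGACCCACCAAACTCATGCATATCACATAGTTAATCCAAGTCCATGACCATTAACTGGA
Gm28437: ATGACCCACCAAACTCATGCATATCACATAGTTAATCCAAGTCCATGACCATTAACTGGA
After the first 13 bases, the mt-Co1 and Gm29216 lines are the same, and the mt-Co2 and mt-Co3 lines are the same as those of their copies throughout.

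The tRNAs with most reads are shown as mature gene sequences with the anticodon in capitals. They are mt-Tq for glutamine (chrM:3772-3842), mt-Tp for proline (chrM:15356-15422) and mt-Te for glutamate (chrM:14071-14139), beside mt-Tn for asparagine (chrM:5089-5159), which had no read in any library. All 4 are on the minus strand of GRCm38.
mt-Tq: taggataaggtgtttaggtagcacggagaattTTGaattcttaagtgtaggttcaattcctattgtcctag
mt-Tp: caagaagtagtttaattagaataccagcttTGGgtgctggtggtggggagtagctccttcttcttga
mt-Te: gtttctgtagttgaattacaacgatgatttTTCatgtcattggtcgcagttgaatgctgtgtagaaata
mt-Tn: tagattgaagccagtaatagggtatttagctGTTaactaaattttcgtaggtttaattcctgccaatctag

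Gene reads per library ran from 5649611 to 8120443. HSC marker genes (Procr, Hlf, Mecom, Slamf1, Ly6a, Kit, Fgd5, Hoxb5 and Mllt3) were detected in every library, with a sum between 1255 and 3373 CPM (counts per 1000000 gene reads). Marker sums are given without TMM scaling factors, while CPM of single genes includes them unless stated otherwise. The median Spearman correlation with the other libraries was lowest in young CCCP 3 at 0.682, old control 1 at 0.795 and young control 3 at 0.801, and 0.824 to 0.860 elsewhere. Old control 1 had 68.8% of its reads assigned to no gene. Young CCCP 3 had 76.2% assigned to no gene and an HSC marker sum of 1255 CPM. Young control 3 had 13105 genes with at least 10 reads, the lowest number of the 17 libraries. Its HSC marker sum was 1874 CPM, against 2472 to 2754 CPM in the other young controls. Its TMM factor was 0.818, against 1.016 to 1.058 in those libraries, so sums scaled by these factors would lie closer together. In bulk RNA, fewer cells of a type and less RNA per cell cannot be told apart. Neutrophil markers, led by S100a8 and S100a9, summed to between 350 and 17854 CPM and were lowest in young control 3. The other lists were led by Cd79b and Ebf1 (B cells), Nkg7 and Klrb1c (T and NK cells), Car2 and Hbb-bs (erythroid cells), Prss34 and Cpa3 (mast cells and basophils), Vwf and Itga2b (megakaryocytes), Lyz2 and Cd68 (monocytes), and Pecam1 and Kdr (stroma and endothelium). Of the 8 lists of markers for other cell types, none had more than 3 of its 6 to 10 members above all other young controls in young control 3. The most were 3 of 6 for B cells and 3 of 8 for erythroid cells. In the megakaryocyte list, Pf4 (184 CPM) and Ppbp (41.1 CPM), without TMM factors, were at their highest of the 17 libraries in young control 3. Vwf, Itga2b and Gp9 were at their lowest there. The list's sum was 353 CPM, against 223 to 260 CPM in the other young controls. The part of other cells in its mtDNA values was not tested. The members' fold changes against young controls are given with and without young control 3, and their medians also without young control 3 and young CCCP 3.

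The mtDNA-encoded transcripts made up a small share of gene reads in all 4 groups, between 0.967% and 6.60% over the 17 libraries. It was 2.22%, 1.90%, 4.41%, 1.78% and 2.06% of gene reads in the 5 old Mito-Q libraries, against 1.55%, 3.13% and 2.55% in the 3 old controls. It was 0.967%, 1.26%, 1.92%, 1.5% and 1.81% in the 5 young CCCP libraries, against 1.37%, 1.61%, 6.60% and 1.2% in the 4 young controls. All 4 groups overlapped, and young control 3 was the highest of the 17 libraries. Old controls averaged 2.41% ± 0.80 (SD, n = 3), against 2.69% ± 2.61 (n = 4) in young controls, and 1.39% ± 0.20 (n = 3) in young controls without young control 3. Without that library, 2 of the 3 old controls lay above every young control and old control 1, at 1.55%, lay below young control 2, at 1.61%. Old Mito-Q averaged 2.47% ± 1.09 (n = 5). Young CCCP averaged 1.49% ± 0.39 (n = 5).

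**Figure D1:**
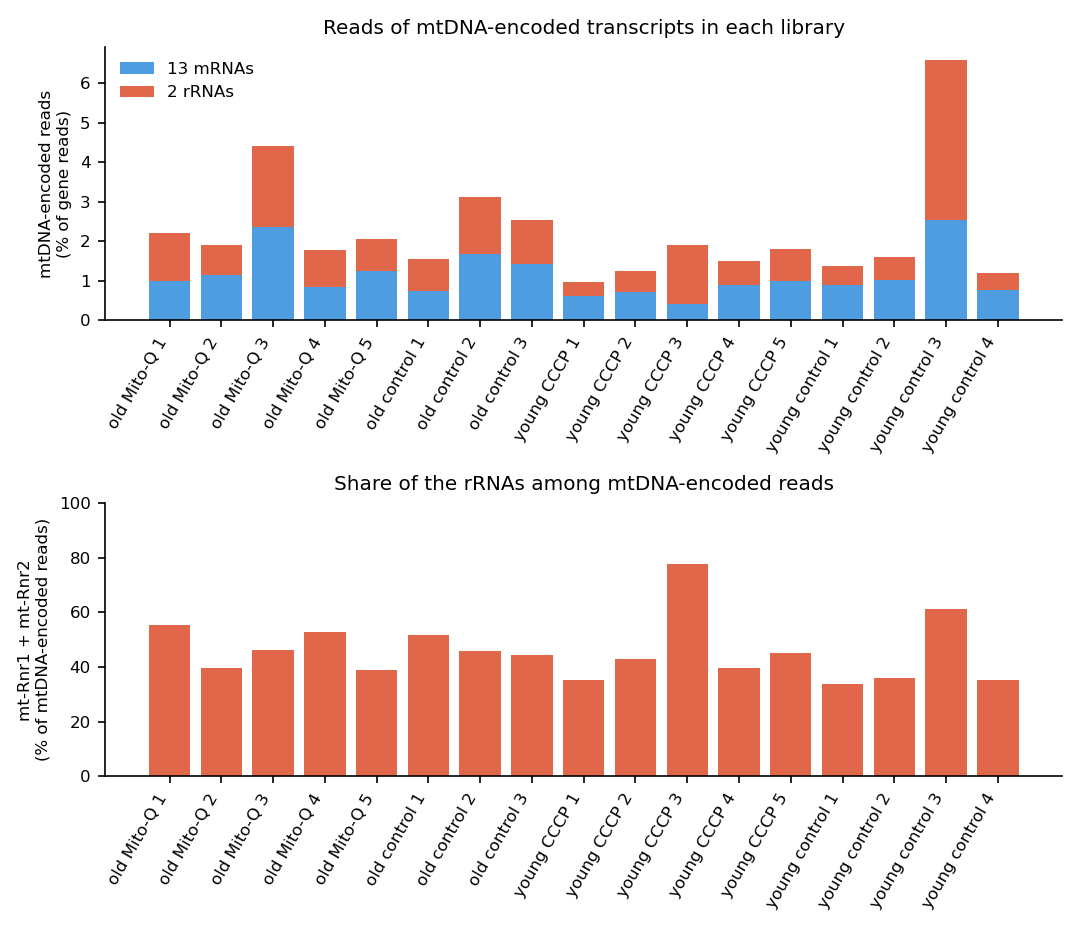
Reads of mtDNA-encoded mRNAs and rRNAs as a percentage of gene reads (upper bars, stacked) and the rRNAs as a percentage of mtDNA-encoded reads (lower bars), for each of the 17 libraries. Young control 3 is highest above at 6.60%, and young CCCP 3 is highest below at 77.7%.

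The 2 rRNAs, mt-Rnr1 (12S, of the small ribosomal subunit, chrM:70-1024) and mt-Rnr2 (16S, of the large subunit, chrM:1094-2675), held between 33.9% and 77.7% of mtDNA-encoded reads. Their share was 55.2%, 39.5%, 46.3%, 52.8% and 39.0% in old Mito-Q libraries, against 51.7%, 46.0% and 44.3% in old controls. It was 35.2%, 43.0%, 77.7%, 39.7% and 45.2% in young CCCP libraries, against 33.9%, 36.0%, 61.4% and 35.1% in young controls. The 2 highest values belonged to young CCCP 3 and young control 3. The young controls other than young control 3 lay between 33.9% and 36.0%, below all 3 old controls. The labels give total RNA and do not state how rRNA was treated, so a share of rRNA reads here need not equal its share of molecules in the cell. Within the rRNAs, mt-Rnr1 was the minor part in all 17 libraries, at between 6.78% and 18.2% of rRNA reads.

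Per kilobase of transcript, the levels spanned more than 3 orders of magnitude, with the lowest levels in genes that are also in the chromosome 1 copy and in mt-Atp8. The median over 17 libraries was 4421 CPM per kb (without TMM factors) for mt-Rnr2 and 1094 CPM per kb for mt-Rnr1. Among the mRNAs it was 2816 CPM per kb for mt-Co1 (catalytic subunit of cytochrome c oxidase, chrM:5328-6872), 2360 for mt-Cytb (cytochrome b of complex III, chrM:14145-15288) and 1016 for the complex I subunit mt-Nd1 (chrM:2751-3707). The complex I subunits mt-Nd5 (chrM:11742-13565), mt-Nd4 (chrM:10167-11544), mt-Nd2 (chrM:3914-4951) and mt-Nd6 (chrM:13552-14070, the single mRNA gene on the minus strand) had medians of 377, 368, 234 and 229 CPM per kb. The remaining mRNAs were far lower, with medians of 18.7 CPM per kb for mt-Nd3 (chrM:9459-9806), 8.60 for mt-Nd4l (chrM:9877-10173), 3.81 for mt-Co3 (chrM:8607-9390), 2.44 for mt-Co2 (chrM:7013-7696), 1.10 for mt-Atp6 (chrM:7927-8607) and 0 for mt-Atp8 (chrM:7766-7969).

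The share of a gene's 50-base windows that also occur in any of the 7 annotated pseudogenes was 99.5% for mt-Co2, 99.5% for mt-Atp6, 99.9% for mt-Co3, 98.0% for mt-Nd3 and 98.8% for mt-Nd4l. It was 62.2% for mt-Nd4, 28.7% for mt-Co1 and 0 for the rRNAs, mt-Nd1, mt-Nd2, mt-Nd5, mt-Nd6 and mt-Cytb. mt-Atp8 has no annotated pseudogene, and the gap between the copies of mt-Co2 and mt-Atp6, in which it would lie, is 233 bases long, against 230 bases between those genes on mtDNA; the sequence of that gap was not compared. Reads per library ran from 5 to 34 for mt-Co2, from 1 to 30 for mt-Atp6, from 4 to 57 for mt-Co3, from 20 to 145 for mt-Nd3, from 2 to 75 for mt-Nd4l and from 0 to 1 for mt-Atp8. mt-Co1, by contrast, had between 8730 and 76889 reads per library. mt-Co1, mt-Co2 and mt-Co3 encode subunits of the same enzyme. Reads without a unique alignment, which the files keep apart from gene counts, made up 5.72% to 11.8% of each file. How many of those came from mtDNA was not tested. The counts of mt-Co2, mt-Co3, mt-Atp6, mt-Nd3 and mt-Nd4l can therefore not be read as those transcripts' abundance, nor can the copied part of mt-Nd4 and mt-Co1.

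**Figure D2:**
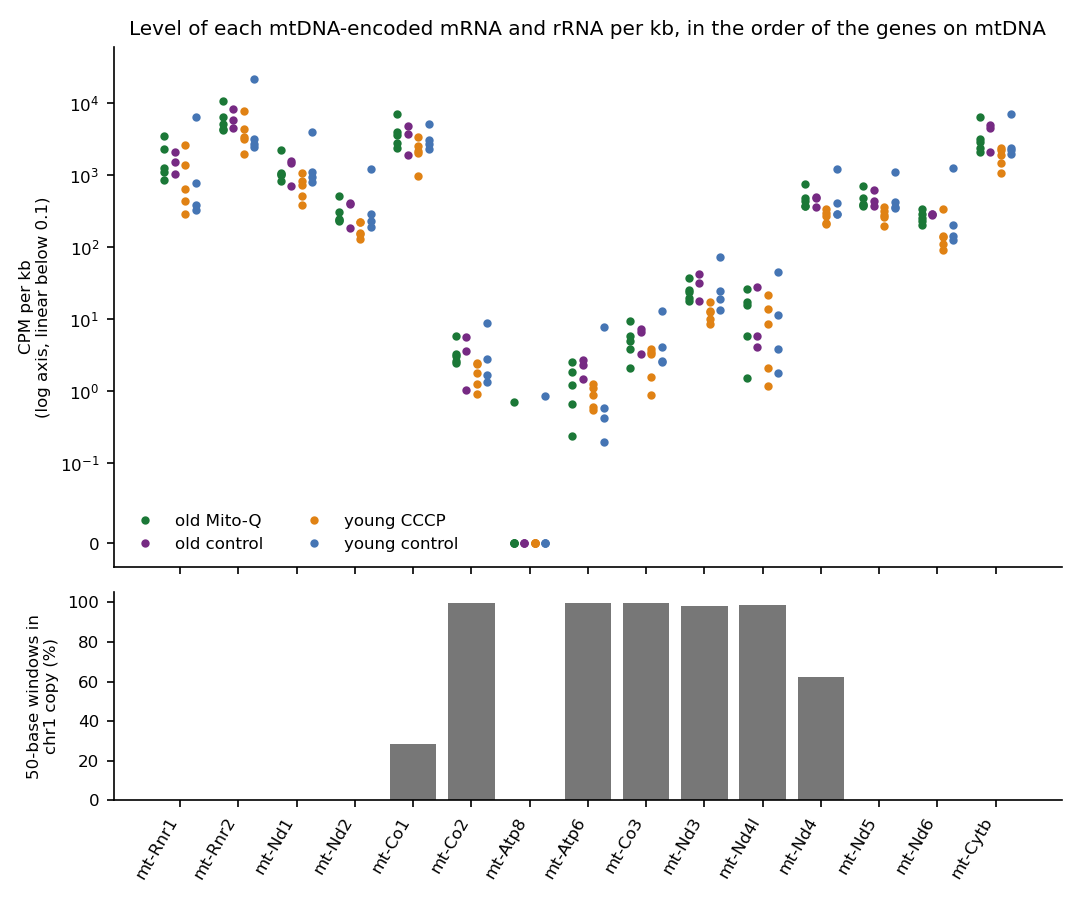
CPM per kb of each mtDNA-encoded rRNA and mRNA in every library (points, log axis, by group) above the share of the gene's 50-base windows found in the chromosome 1 copy (bars, percent), in the genes' order on mtDNA. The genes with bars at 98.0% or more have medians of 18.7 CPM per kb or less, as does mt-Atp8, which has no annotated pseudogene.

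Among the rRNAs and the mRNAs with medians of 229 CPM per kb or more, of which mt-Co1 and mt-Nd4 are partly copied, the order of the levels was kept in most libraries. mt-Cytb lay above mt-Nd1, and mt-Nd1 above mt-Nd5, in 17 of 17 libraries, and mt-Rnr2 lay above mt-Rnr1 in 17 of 17. mt-Rnr2 lay above mt-Co1 in 16, the exception being young CCCP 1. mt-Nd4 lay above mt-Nd2 in 16, the exception being young control 3. The neighbours mt-Nd5 and mt-Nd4 changed places in 6 libraries and mt-Nd2 and mt-Nd6 in 4, so neither pair is separated beyond the spread. mt-Co1 lay above mt-Cytb in 12 libraries, and the 5 exceptions were all 3 old controls, young CCCP 3 and young control 3. Overlapping genes add to the uncertainty where strand was not used in counting, which the sources used here do not give. mt-Nd5 and mt-Nd6, on opposite strands, share 14 bases, mt-Atp8 and mt-Atp6 share 43 bases, and mt-Nd4l and mt-Nd4 share 7 bases.

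Of the 37 members, 16 passed the filter on low counts and were tested: the mRNAs other than mt-Atp8, both rRNAs and the tRNAs mt-Tq and mt-Tp. Medians and sign counts over the 16 therefore take in mt-Co2, mt-Co3, mt-Atp6, mt-Nd3 and mt-Nd4l, whose counts cannot be read as abundance. By edgeR's quasi-likelihood test, 0 of the 16 were called at an adjusted p below 0.05 in old controls against young controls, where 1.69% of the 24523 genes tested were called. The same was true of old Mito-Q against old controls, where 0 members were called against 0.542% of genes, and of young CCCP against young controls, with 0 members against 0.718% of genes. DESeq2 called 0 members in each comparison, where it called 6.98%, 2.17% and 2.93% of genes in the same order. An unadjusted edgeR p below 0.05 was found for 0 members in old against young controls, against 14.2% of genes, for 0 in old Mito-Q against old controls, against 5.12% of genes higher and 4.93% lower, and for 7 in young CCCP against young controls, against 11.2% of genes.

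In HSCs of old controls, the mtDNA-encoded transcripts had lower fitted estimates than in young controls with all libraries in, and higher ones once young control 3 was left out. The median log2 fold change of the 16 members was -0.36, beside 0.16 over all genes tested. Without young control 3 the median of the members was 0.88, with all 16 above 0, beside 0.11 over all genes, and without young CCCP 3 as well it was 0.90, beside 0.14. Young control 3 had the highest CPM of the young controls for each of the 16 members. Leaving it out therefore raises the members' estimates against young controls by construction, and their signs without it are no separate evidence. With young control 3 alone left out, 0 members were called, where 1.98% of genes were, and 4 had an unadjusted p below 0.05, where 15.5% of genes had one. They were mt-Rnr1, mt-Rnr2, mt-Nd6 and mt-Cytb. Again without young control 3, the old control libraries lay above all young controls for 4 of the 16 members (mt-Rnr1, mt-Rnr2, mt-Nd6 and mt-Atp6), where 8.17% of genes did so. mt-Atp6 is one of the copied genes and had at most 30 reads in a library.

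For the rRNAs the libraries showed this most plainly. mt-Rnr2 had 5794, 13898 and 10630 CPM in old controls, against 4255, 4761, 41979 and 3741 CPM in young controls. All 3 old controls lay above 3 of the young controls and below young control 3. The log2 fold change was -0.44 (SE 0.72, edgeR adjusted p = 0.861) with all libraries and 1.26 (SE 0.47, edgeR adjusted p = 0.182) without young control 3. mt-Rnr1 had 813, 1583 and 2263 CPM in old controls, against 309, 707, 7505 and 349 CPM in young controls. The arrangement was the same, with log2 fold changes of -0.51 (SE 1.10, edgeR adjusted p = 0.901) and, without young control 3, 1.78 (SE 0.70, edgeR adjusted p = 0.220).

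Among the complex I mRNAs, mt-Nd6, which lies alone among the mRNAs on the light-strand transcript, had 120, 163 and 171 CPM in old controls, against 74.0, 99.8, 793 and 63.2 CPM in young controls. Its log2 fold change was -0.77 (SE 0.64, edgeR adjusted p = 0.674), and 0.94 (SE 0.42, edgeR adjusted p = 0.288) without young control 3. mt-Nd1 averaged 1247 CPM in old controls (n = 3), against 1801 CPM in young controls (n = 4), a log2 fold change of -0.53 (SE 0.53), and 0.51 (SE 0.43) without young control 3. The log2 fold changes of mt-Nd2, mt-Nd3, mt-Nd4l, mt-Nd4 and mt-Nd5 were -0.66, -0.17, -0.39, -0.39 and -0.33, and none was called. They were 0.60, 0.83, 1.30, 0.54 and 0.42 without young control 3, and none was called there either.

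For the other complexes, mt-Cytb had 1958, 5998 and 5813 CPM in old controls, against 2538, 2553, 9908 and 2158 CPM in young controls. Old control 1 lay below all young controls and the other 2 old controls lay between young control 3 and the rest. Its log2 fold change was 0.10 (SE 0.49, edgeR adjusted p = 0.965), and 0.94 (SE 0.44, edgeR adjusted p = 0.312) without young control 3. mt-Co1 had 2417, 8010 and 6460 CPM in old controls, against 4089, 4464, 9682 and 3387 CPM in young controls, with a log2 fold change of 0.06 (SE 0.45, edgeR adjusted p = 0.978), and 0.51 (SE 0.46) without young control 3. Young control 3 stood less far from its group for mt-Co1 than for the rRNAs. The low-count genes mt-Co2, mt-Co3 and mt-Atp6 had log2 fold changes of -0.15, -0.03 and -0.22 with SEs of 1.33, 1.13 and 1.60, and 0.98, 1.02 and 2.48 without young control 3.

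**Figure D3:**
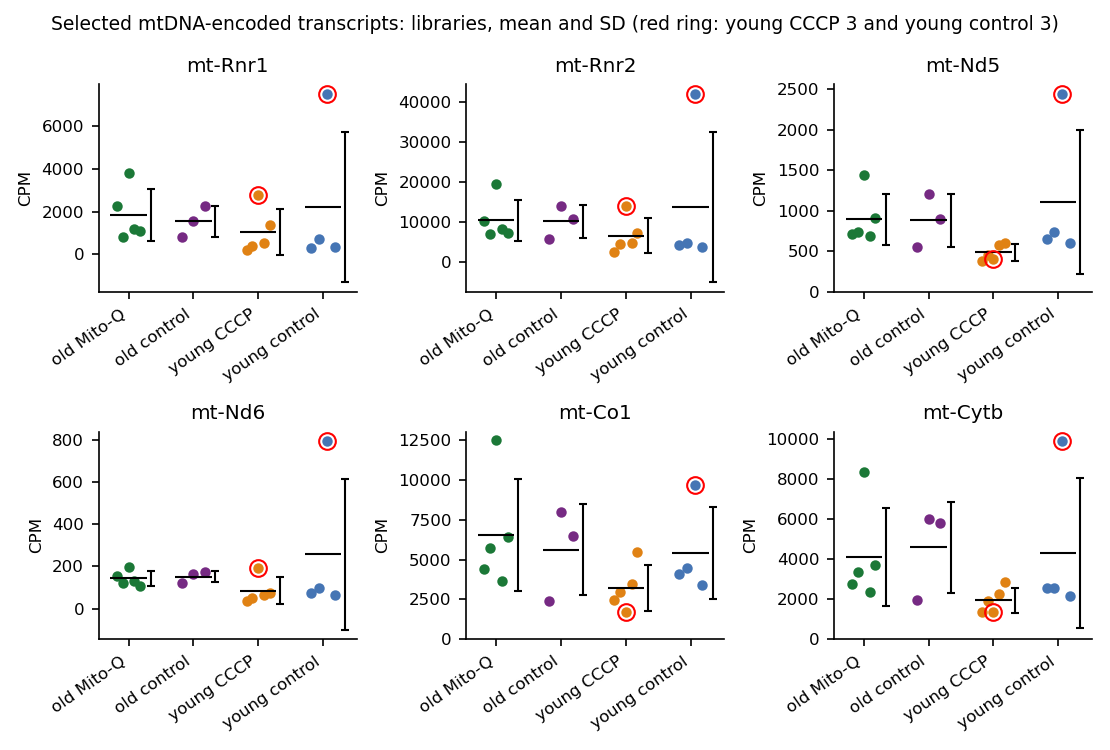
CPM (with TMM factors) of 6 mtDNA-encoded transcripts in every library by group; lines are group means, bars beside them 1 SD, and red rings mark young CCCP 3 and young control 3. For mt-Rnr2 young control 3 stands at 41979 CPM, above every other library.

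In HSCs of young mice given CCCP, the members had lower estimates than in young controls, and these too depended on young control 3. All 16 log2 fold changes were below 0, with a median of -1.26, beside 0.21 over all genes tested. The 7 members with an unadjusted p below 0.05 were the complex I subunits mt-Nd1, mt-Nd2, mt-Nd3, mt-Nd4, mt-Nd5 and mt-Nd6 and the complex III subunit mt-Cytb. The median without young control 3 was -0.30, beside 0.14 over all genes, and without young CCCP 3 as well it was -0.18, beside 0.06. Without young control 3 alone, 0 members had an unadjusted p below 0.05, where 7.36% of genes had one. With young control 3 in, but without the low-count filter, edgeR called mt-Nd2, mt-Nd4, mt-Nd5 and mt-Nd6 as lower in young CCCP. That was 4 of 29 members tested, where 0.464% of the 48965 genes tested were called lower. With the filter and without young control 3, the log2 fold changes of these 4 were -0.47, -0.34, -0.46 and 0.04, and none was called. No unfiltered fit without young control 3 was made.

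mt-Nd2 had 106, 144, 257, 206 and 166 CPM in young CCCP, against 239, 286, 1556 and 192 CPM in young controls. The groups overlapped, with young CCCP 3 above young controls 1 and 4, and young CCCP 4 above young control 4. The log2 fold change was -1.69 (SE 0.48, edgeR adjusted p = 0.146), the lowest adjusted p among the members, and -0.47 (SE 0.36, edgeR adjusted p = 0.878) without young control 3. mt-Nd5 had 385, 456, 407, 583 and 598 CPM in young CCCP, against 651, 733, 2447 and 607 CPM in young controls. Every young CCCP library lay below every young control for mt-Nd5, the single one of the 16 members of which this was true, where 2.89% of genes had the same arrangement. Its log2 fold change was -1.19 (SE 0.36, edgeR adjusted p = 0.188), and -0.46 (SE 0.30, edgeR adjusted p = 0.822) without young control 3.

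The other complex I mRNAs gave log2 fold changes of -1.51 (SE 0.46) for mt-Nd1, -1.25 (SE 0.40) for mt-Nd4, -1.61 (SE 0.55) for mt-Nd6, -1.63 (SE 0.70) for mt-Nd3 and -0.97 (SE 1.18) for mt-Nd4l. mt-Nd1 averaged 633 ± 233 CPM in young CCCP (SD, n = 5), against 1801 ± 1846 CPM in young controls (n = 4). With young control 3 left out, the log2 fold changes of mt-Nd1, mt-Nd4, mt-Nd6, mt-Nd3 and mt-Nd4l were -0.48, -0.34, 0.04, -0.67 and 0.72. The SD of mt-Nd1 in young controls exceeded its mean, and young control 3 was at 4566 CPM, against 750 to 1005 CPM in the other young controls.

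Among the rRNAs, mt-Rnr2 had 2505, 4463, 13892, 4682 and 7222 CPM in young CCCP, against 4255, 4761, 41979 and 3741 CPM in young controls. The highest library of each group was the one that stood apart, young CCCP 3 and young control 3. The log2 fold change was -1.06 (SE 0.62, edgeR adjusted p = 0.568), and 0.58 (SE 0.42, edgeR adjusted p = 0.868) without young control 3. mt-Rnr1 had log2 fold changes of -1.06 (SE 0.95) and, without young control 3, 1.16 (SE 0.64). mt-Cytb had 1356, 1919, 1357, 2264 and 2843 CPM in young CCCP, against 2538, 2553, 9908 and 2158 CPM in young controls, and the fitted difference was -1.14 on the log2 scale (SE 0.43, edgeR adjusted p = 0.331), and -0.32 (SE 0.39) without young control 3. mt-Co1 had 2484, 2942, 1687, 3486 and 5461 CPM in young CCCP, against 4089, 4464, 9682 and 3387 CPM in young controls, and the fitted difference was -0.75 on the log2 scale (SE 0.39, edgeR adjusted p = 0.493), and -0.31 (SE 0.41) without young control 3. In young CCCP 3 mt-Co1 was the lowest of the 17 libraries while mt-Rnr2 was the highest of its group. mt-Co2, mt-Co3 and mt-Atp6 had log2 fold changes of -1.26, -1.33 and -1.60 with SEs of 1.17, 1.00 and 1.40, and -0.17, -0.29 and 1.06 without young control 3. Neutrophil markers summed to between 820 and 17854 CPM in young CCCP, against 350 to 2129 CPM in young controls, and their part in these values was not tested.

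In HSCs of old mice given Mito-Q, no member was called, with estimates on both sides of 0. The median log2 fold change of the 16 members was -0.00, with 8 above and 8 below 0, beside -0.12 over all genes tested. mt-Rnr2 had 10154, 6884, 19325, 8204 and 7230 CPM in old Mito-Q, against 5794, 13898 and 10630 CPM in old controls (log2 fold change 0.04, SE 0.68, edgeR adjusted p = 0.998). mt-Cytb had 2748, 3341, 8367, 2371 and 3706 CPM in old Mito-Q, against 1958, 5998 and 5813 CPM in old controls (log2 fold change -0.16, SE 0.47, edgeR adjusted p = 0.963). mt-Co1 had 4408, 5700, 12496, 3631 and 6401 CPM in old Mito-Q, against 2417, 8010 and 6460 CPM in old controls (log2 fold change 0.21, SE 0.43, edgeR adjusted p = 0.937). The groups overlapped in each, and old Mito-Q 3 was the highest library of its group for all 3 transcripts. Neutrophil markers summed to between 957 and 13119 CPM in old Mito-Q, against 1296 to 2158 CPM in old controls. Their part in these values was not tested.

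The complex I estimates for Mito-Q lay within 1 SE of 0. mt-Nd5 had 711, 735, 1437, 688 and 911 CPM in old Mito-Q, against 550, 1206 and 897 CPM in old controls (log2 fold change 0.02, SE 0.39). mt-Nd6 had 153, 122, 198, 133 and 109 CPM in old Mito-Q, against 120, 163 and 171 CPM in old controls (log2 fold change -0.08, SE 0.60). mt-Nd1, mt-Nd2, mt-Nd3, mt-Nd4l and mt-Nd4 had log2 fold changes of 0.02, -0.09, -0.31, 0.01 and 0.15, and mt-Rnr1 had 0.24 (SE 1.05). mt-Co2, mt-Co3 and mt-Atp6 had -0.01, -0.12 and -0.71. With 1 library left out at a time, these estimates ran from -0.62 to 0.08 for mt-Cytb, from -0.21 to 0.56 for mt-Co1, from -0.54 to 0.55 for mt-Co2 and from -0.46 to 1.58 for mt-Nd4l, and the difference in mean mtDNA share ran from -0.423 to 0.421 percentage points. With SEs of 0.39 to 1.49 on the log2 scale, a failure to call a member does not show that the groups were alike. The Mito-Q and ageing comparisons share the old control libraries, and the CCCP and ageing comparisons share the young controls.

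**Figure D4:**
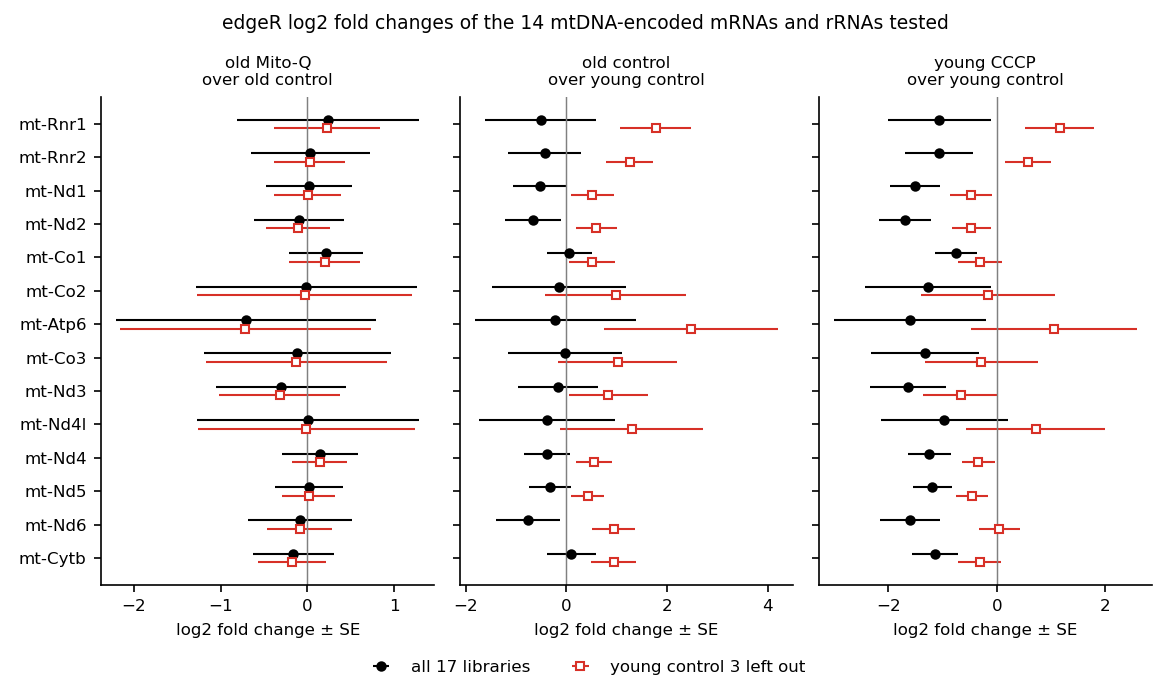
edgeR log2 fold changes with 1 SE of the 14 mRNAs and rRNAs tested, in 3 comparisons, with all 17 libraries (black circles) and without young control 3 (open red squares). Leaving out young control 3 moved the medians over the 16 members tested from -0.36 to 0.88 in old over young controls and from -1.26 to -0.30 in young CCCP over young controls; in old Mito-Q over old controls it was -0.00 with all libraries and -0.02 without it.

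The tRNAs were almost absent from these libraries, at between 0.0351% and 0.202% of mtDNA-encoded reads. Of the 22, 8 had no read in any of the 17 libraries, and the 14 others had few. The genes on the minus strand, where 8 of the 22 tRNAs lie, had 2242 reads summed over the 17 libraries, against 88 reads for the 14 on the plus strand. The 5 tRNAs with most reads were all on the minus strand, and mt-Tq and mt-Tp held 89.3% of tRNA reads. mt-Tq had between 24 and 182 reads per library and mt-Tp between 13 and 128, while mt-Te had between 0 and 17. In old against young controls, mt-Tq and mt-Tp had log2 fold changes of -0.52 (SE 0.87) and -0.33 (SE 0.87). With CCCP they had -0.34 (SE 0.75) and -1.29 (SE 0.76), and with Mito-Q -0.20 (SE 0.82) and 0.43 (SE 0.84), and none was called. Without young control 3 mt-Tq and mt-Tp had 0.65 (SE 0.83) and 0.64 (SE 0.87) in old over young controls, and 0.76 (SE 0.76) and -0.37 (SE 0.77) in young CCCP over young controls. Gene counts cannot tell mature tRNA from uncut precursors, and the strand setting of the counting is not given in the sources used here.

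Reads on the chromosome 1 pseudogenes differed between libraries in a way that the groups did not follow. Of all reads on mtDNA genes and pseudogenes together, the 7 pseudogenes held 0.261% to 0.417% in 8 libraries and 1.39% to 2.60% in the other 9, with no library between. The 8 were 2 libraries of each group: old Mito-Q 3 and 5, old control 1 and 2, young CCCP 1 and 3, and young control 1 and 2. Of the 5 mRNAs almost wholly inside the copy, mt-Nd4l alone went with them. It had 1.80 to 11.1 reads per 100000 mtDNA-encoded reads in the 8 libraries and 20.1 to 35.1 in the 9. The others did not divide the libraries: mt-Co3 had 24 reads in young control 1, among the 8, and 15 in young control 4, among the 9. Gm10222, the copy of mt-Nd4l, had 0 to 2 reads in each library, Gm28438 0 to 2 and Gm28439 0 to 9. Gm28437, the copy of mt-Co3, had 92 to 354 reads in the 8 and 646 to 2223 in the 9, while mt-Co3 itself had at most 57 reads in any library. The pseudogenes never exceeded 0.0928% of gene reads. Of the 7 pseudogenes 4 were tested, and 0 were called by edgeR in any comparison. An unadjusted p below 0.05 was found for 1 of them, Gm29216 in young CCCP over young controls (edgeR adjusted p = 0.448), where 11.2% of genes had one.

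**Figure D5:**
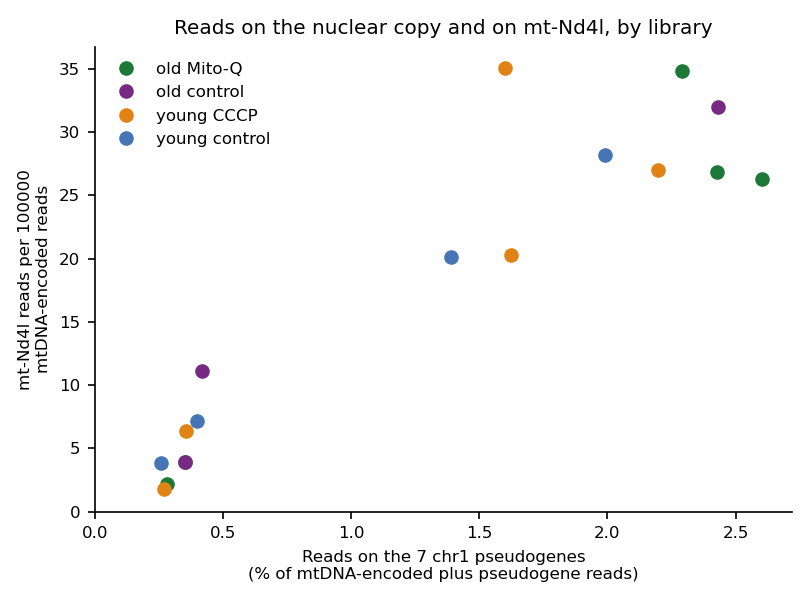
Reads on the 7 chromosome 1 pseudogenes as a percentage of mtDNA-encoded plus pseudogene reads (x axis) against mt-Nd4l reads per 100000 mtDNA-encoded reads (y axis), 1 point a library, coloured by group. The libraries form 8 points at or below 0.417% and 9 at or above 1.39%, and each group has points in both.

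The nuclear genes that transcribe, cut, modify and stabilise mtDNA transcripts were also mostly uncalled. Of 49 listed, 48 were tested. Hsd17b10, a subunit of mitochondrial RNase P, rose in old controls, the 1 of 48 called, where 0.522% of all genes were called higher. It had 284, 802 and 1050 CPM in old controls, against 238, 238, 222 and 225 CPM in young controls. Every old control lay above every young control, with a log2 fold change of 1.63 (SE 0.33, edgeR adjusted p = 0.00685), although old control 1 was close to the young controls. With young control 3 left out, 8.17% of genes lay higher in this way, Hsd17b10 among them. The gene averaged 406 ± 95.8 CPM in old Mito-Q (n = 5), with a log2 fold change of -0.81 against old controls (edgeR adjusted p = 0.355), and 162 ± 24.2 CPM in young CCCP (n = 5), with -0.51 against young controls (edgeR adjusted p = 0.533). It was not called without old control 2 (edgeR adjusted p = 0.0835) or without old control 3 (edgeR adjusted p = 0.190). No other gene of the list was called in any comparison. Cox14, a cytochrome c oxidase assembly factor, and Nsun2, a tRNA methyltransferase, were with Hsd17b10 the listed genes of highest mean count, with log2 fold changes of 0.81 (SE 0.40) and -0.36 (SE 0.36) in old over young controls.

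Of the 72 nuclear subunits of complexes I, III, IV and V tested, 0 were called by edgeR in any comparison. Their median log2 fold changes were 0.53 in old over young controls, -0.54 in old Mito-Q over old controls and -0.68 in young CCCP over young controls, beside medians of 0.16, -0.12 and 0.21 over all genes. An unadjusted p below 0.05 was found for 13 in old against young controls, where 14.2% of genes had one. It was found for 56 there without young control 3, of which 55 were higher, where 15.5% of genes had one. The median without that library was 1.15, beside 0.11 over all genes. It was found for 5 in old Mito-Q against old controls, all lower, where 4.93% of genes were lower. It was found for 28 in young CCCP against young controls, where 11.2% of genes had one, and for 1 without young control 3, where the median was -0.18 and 7.36% of genes had one. DESeq2 called 3, 0 and 1 in the same order, where it called 6.98%, 2.17% and 2.93% of genes. Cox4i1, a complex IV subunit, averaged 979 CPM in old controls, against 524 CPM in young controls, and the fitted difference was 0.90 on the log2 scale (SE 0.32, edgeR adjusted p = 0.183). Atp5b and Atp5a1, the beta and alpha subunits of the catalytic part of ATP synthase, had log2 fold changes of 0.11 (SE 0.30) and -0.24 (SE 0.35). Atp5b averaged 1045 CPM in old controls, against 970 CPM in young controls. Without young control 3 and young CCCP 3 together, 26 of the 72 were called higher in old than in young controls, where 2.45% of genes were called higher. Of the 16 mtDNA-encoded members 0 were called there, the lowest edgeR adjusted p being 0.0503 for mt-Rnr2. In that setting, chosen after seeing the data, the median log2 fold change was 1.17 for the 72 and 0.90 for the members, with all 16 members above 0. With all 17 libraries the medians went opposite ways, at 0.53 for the 72 and -0.36 for the members, of which 14 were below 0.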

How the data were processed

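RNA of sorted SLAM-HSCs was made into Nextera XT libraries at reduced volume, per the labels' protocols. Trim Galore, STAR 2.7 and GRCm38 are named in the submitters' processing notes; the counter, its strand setting, its annotation and any duplicate removal are not given in the sources used here. The deposited values are the authors' whole-number read counts per gene, 1 file a library, not normalized. The 5 closing entries that name no gene held 37.7% to 76.2% of each file and were left out of library sizes. Gene names, lengths and sequences are from GENCODE M21 (GRCm38).

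All 17 libraries (5649611 to 8120443 gene reads) entered 1 model (edgeR 4.0.16; R 4.3.3). It used TMM scaling, a filter at a minimum count of 10 (filterByExpr), robust quasi-likelihood tests and Benjamini-Hochberg adjustment over the 24523 genes tested. SE is the size of the log2 fold change divided by the square root of F. The procedure was run on simulated counts with the same dispersion for all genes and no library that stands apart. That run does not measure its behaviour on these data. A count of 0 allows up to 3 reads (0.369 to 0.531 CPM without TMM factors), which covers counting error only. The members and lists were chosen with earlier results of these data known. All mRNAs and rRNAs are named, the 3 tRNAs and the 3 nuclear genes per list of highest mean count, each called gene, and the 2 leading markers of each other cell type. Alternatives were DESeq2 1.42.0, other scalings, no filter, a replicate block, each library left out and, chosen after seeing the data, young control 3 and young CCCP 3 left out together. Showing the fits without young control 3 beside the main ones was also decided after seeing the data. No pair of replicates agreed within sampling noise. A further HSC marker of the list is not reported here.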

Additional observations from a re-analysis of the deposited data

Results flagged for a closer look

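In groups of 4 or 5 libraries, 1 library lay far from the rest of its group, relative to the group's range, in 23 of the 48 combinations of group and measure examined (16 measures). The cut-offs used would set a library apart in about 1 in 20 groups of normally distributed values. They were applied here to CPM and percentages without a log scale, for which the rate was not measured. The measures share libraries, so the 23 are not independent. Of the 23, 14 were young control 3.

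In young control 3 mt-Rnr1 stood at 7505 CPM, mt-Rnr2 at 41979, mt-Nd1 at 4566, mt-Nd2 at 1556, mt-Nd4 at 2024, mt-Nd5 at 2446.5, mt-Nd6 at 793 and mt-Cytb at 9908 CPM. The low-count mRNAs stood at 7.35 CPM for mt-Co2, 6.49 for mt-Atp6, 12.3 for mt-Co3 and 31.4 for mt-Nd3. Its mtDNA share was 6.60% of gene reads and its rRNA share 61.4% of mtDNA-encoded reads. The same library had the fewest genes with at least 10 reads, 13105, and its 11.8% of reads without a unique alignment was the highest share; the part of either in its mtDNA values was not tested.

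In old Mito-Q 3 mt-Rnr2 stood at 19325 CPM, mt-Nd1 at 2444, mt-Nd2 at 605, mt-Co2 at 4.55, mt-Nd4 at 1184 and mt-Cytb at 8367 CPM, and the mtDNA share was 4.41% of gene reads. In young CCCP 3 mt-Nd6 stood at 194 CPM and the rRNA share was 77.7% of mtDNA-encoded reads.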

How the results depend on the processing

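For the 16 members tested, no call was made under DESeq2, scaling by library totals, by nuclear reads, by upper quartiles or by the size factors of DESeq2, the replicate block or any left-out library; without the filter on low counts 4 were called in young CCCP over young controls. A change of direction is counted where at least 1 of the estimates exceeds its SE. No member changed direction in old Mito-Q over old controls.

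Leaving out young control 3 turned directions. With 1 library left out at a time, log2 fold changes in old over young controls ran from -0.88 to 1.78 for mt-Rnr1, -0.75 to 1.25 for mt-Rnr2, -0.79 to 0.51 for mt-Nd1, -0.95 to 0.60 for mt-Nd2, -0.61 to 2.48 for mt-Atp6, -0.57 to 0.83 for mt-Nd3, -0.63 to 0.54 for mt-Nd4, -0.62 to 0.42 for mt-Nd5 and -1.09 to 0.94 for mt-Nd6. In young CCCP over young controls they ran from -1.82 to 1.16 for mt-Rnr1, -1.54 to 0.58 for mt-Rnr2, -1.99 to 1.06 for mt-Atp6 and -2.17 to 0.042 for mt-Nd6. Each highest value was without young control 3. Without young control 3 and young CCCP 3, old over young controls gave 1.79 for mt-Rnr1, 1.27 for mt-Rnr2 (edgeR adjusted p = 0.0503), 0.53 for mt-Nd1, 0.61 for mt-Nd2, 2.49 for mt-Atp6, 0.85 for mt-Nd3, 1.31 for mt-Nd4l, 0.56 for mt-Nd4, 0.44 for mt-Nd5 and 0.96 for mt-Nd6. Young CCCP over young controls gave 0.47 for mt-Rnr1, 0.15 for mt-Rnr2 and 0.84 for mt-Atp6. The cause was not tested.

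Genes called numbered 415 in old over young controls, 133 in old Mito-Q over old controls and 176 in young CCCP over young controls. DESeq2 called 1260, 442 and 556. Without young control 3 and young CCCP 3 the first comparison gave 1293 and the second 323. No filter gave 324 in the third. With 1 library left out, the first ran from 125 (without old control 2) to 755 (without young CCCP 3) and the second from 79 (without old control 2) to 219 (without young CCCP 3).

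Of the nuclear mtDNA expression genes, old over young controls gave 2 without the filter, 5 with DESeq2, 7 without both libraries that stand apart, and 0 (without old control 2) to 4 (without old control 1) with 1 library left out. Old Mito-Q over old controls gave 1 with DESeq2, where 2.17% of genes were called. With 1 library left out it gave 0 to 1, and 79 to 219 genes were called over these fits. Young CCCP over young controls gave 1 without the filter, where 324 of 48965 genes were called, and 1 with DESeq2, where 2.93% were. Of the 72 nuclear respiratory subunits, old over young controls gave 3 with DESeq2, where 6.98% of genes were called. Without both libraries that stand apart it gave 26, where 1293 of 23419 genes were called. With 1 library left out it gave 0 to 5, the 5 being without young control 3, where 1.98% of genes were called. Young CCCP over young controls gave 1 under DESeq2 size factors, upper-quartile scaling and the replicate block (168 genes called). It also gave 1 under DESeq2 (2.93% of genes called) and without both libraries (176 of 23419 genes called). It gave 4 without the filter, where 324 of 48965 genes were called. With 1 library left out it gave 0 to 1, and 130 to 196 genes were called over these fits.

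With replicate number as a block, 404, 130 and 168 genes and 0 members were called. Same-numbered libraries deviated together with correlations of -0.0931 to 0.134, 0.0123 to 0.0695 and -0.0798 to 0.102, so the numbers were not taken to pair libraries. The SEs of mt-Co2, mt-Atp6 and mt-Nd4l, with at most 75 reads in a library, exceed 1 on the log2 scale in each comparison; the part of depth in this was not tested.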

Other observations

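The relation of mt-Co1 to mt-Cytb, which follow each other in level, was examined after their order was seen to differ in old controls. Reads per kb of mt-Co1 divided by those of mt-Cytb were 1.19, 1.26, 1.11, 1.13 and 1.28 in old Mito-Q libraries, against 0.914, 0.989 and 0.823 in old controls. All 5 old Mito-Q libraries lay above all 3 old controls, with means of 1.19 ± 0.08 and 0.91 ± 0.08 (SD). The ratio was 1.36, 1.14, 0.921, 1.14 and 1.42 in young CCCP libraries, against 1.19, 1.29, 0.724 and 1.16 in young controls. Young CCCP 3 and young control 3 were the lowest of their groups. Part of mt-Co1, and none of mt-Cytb, is in the annotated pseudogenes of the chromosome 1 copy. The ratio was chosen after seeing the values and no test was made.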
